A study of Mus musculus with 24 samples.

Results

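The expression of 10 macrophage marker genes, of 35275 genes in the count table, was followed in fasted mouse liver. The members were chosen by gene symbol. Clec4f, Vsig4, Cd5l and Marco mark resident Kupffer cells, Gpnmb, Trem2, Spp1 and Itgax mark lipid-associated macrophages, and Csf1r and Ccr2 are receptors of the wider myeloid lineage. All 10 passed the filter on low counts, Trem2, Itgax and Ccr2 with few reads.

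RNA was taken from the livers of male C57BL/6 mice, 8 to 10 weeks of age, after 24 h without food, and 24 libraries were sequenced as single 75-base reads, with 4 libraries for each of 6 genotypes. Tsc1 L-/- livers lacked Tsc1, a brake on mTorc1, Cpt2 L-/- livers lacked Cpt2, an enzyme of mitochondrial fatty acid oxidation, and Tsc1Cpt2 L-/- livers lacked both. Littermates with floxed Tsc1 and Cpt2 alleles were the controls, which the labels call wild type. PPAR-a KO mice lacked the fasting receptor Ppara, and Cpt2L-/- Ppara KO mice lacked Ppara and hepatic Cpt2. Deletion in the liver used a Cre driven by the Albumin promoter, which is active in hepatocytes. Whether macrophages kept their Tsc1 and Cpt2 genes was not measured here. Whether the loss of Ppara was restricted to the liver is not given in the sources used here. The paper's methods do not describe the Ppara lines, so whether those mice were littermates of these controls is not known here. The comparisons therefore ask how macrophage transcripts in whole liver differ when hepatocytes lose mTorc1 restraint, fatty acid oxidation or both, and, in the Ppara series, when the fasting receptor is missing as well.

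Kupffer cells are the resident macrophages of the liver sinusoids. They depend on Csf1r, the receptor for the growth factors Csf1 and Il34, and are recognized by receptors that clear microbes and cell debris from blood. In fatty liver and other lipid-rich tissue, macrophages can take up a lipid-associated state with high Gpnmb, Trem2, Spp1 and Itgax, and part of these cells derive from Ccr2-positive monocytes. In RNA of a whole liver, fewer cells of a type and less RNA per cell cannot be told apart, and the cell that made a transcript is not known.

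The start-site regions of Gpnmb, which rose in several genotypes, and of Clec4f, Vsig4 and Cd5l, which fell together in Tsc1Cpt2 L-/- livers, are printed for that contrast. They are RefSeq sequences of build GRCm38.p6, from 250 bases before to 30 bases after the annotated start, on the strand of the gene. The Gpnmb window lies at chr6:49036268-49036547 on the plus strand, Clec4f at chr6:83656087-83656366 on the minus strand, Vsig4 at chrX:96293409-96293688 on the minus strand and Cd5l at chr3:87357631-87357910 on the plus strand. Capitals mark each match to one of the 5 motifs searched.
Gpnmb: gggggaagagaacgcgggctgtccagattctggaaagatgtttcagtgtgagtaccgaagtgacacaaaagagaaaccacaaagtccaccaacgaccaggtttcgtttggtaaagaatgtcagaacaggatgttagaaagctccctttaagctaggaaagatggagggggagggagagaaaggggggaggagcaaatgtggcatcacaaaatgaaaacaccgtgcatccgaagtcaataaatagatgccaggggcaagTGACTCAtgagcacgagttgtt
Clec4f: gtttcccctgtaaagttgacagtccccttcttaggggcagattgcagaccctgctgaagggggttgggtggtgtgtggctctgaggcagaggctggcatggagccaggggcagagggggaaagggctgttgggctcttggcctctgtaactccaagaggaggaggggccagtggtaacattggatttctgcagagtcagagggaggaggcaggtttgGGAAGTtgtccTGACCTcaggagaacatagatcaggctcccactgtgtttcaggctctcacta
Vsig4: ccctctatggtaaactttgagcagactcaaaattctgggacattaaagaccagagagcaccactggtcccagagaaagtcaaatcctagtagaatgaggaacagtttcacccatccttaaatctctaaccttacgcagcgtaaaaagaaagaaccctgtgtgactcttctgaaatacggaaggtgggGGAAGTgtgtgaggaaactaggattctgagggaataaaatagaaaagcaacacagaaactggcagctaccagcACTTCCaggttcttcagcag
Cd5l: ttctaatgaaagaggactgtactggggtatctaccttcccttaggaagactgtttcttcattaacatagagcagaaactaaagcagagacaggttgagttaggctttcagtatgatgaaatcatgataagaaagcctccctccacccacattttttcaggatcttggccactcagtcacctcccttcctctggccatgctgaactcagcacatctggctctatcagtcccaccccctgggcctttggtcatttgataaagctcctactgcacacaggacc
The motifs, searched on both strands, were TGACTCA (the AP-1 site), CACGTG and CATGTG (E-box forms read by Mitf and related factors), GGAAGT (an ETS core, as bound by PU.1, the product of Spi1) and AGGTCA (a nuclear receptor half-site). Counting the start base as 1, Gpnmb had TGACTCA from base 9. Clec4f had GGAAGT 33 bases and TGACCT, the reverse complement of AGGTCA, 22 bases before the start. Vsig4 had GGAAGT 63 bases before the start and its reverse complement, ACTTCC, from base 11. No matches overlapped, and the Cd5l window held none of these motifs. Among 32851 RefSeq windows of the same length, TGACTCA was in 4.94%, CACGTG in 6.79%, CATGTG in 13.4%, GGAAGT in 22.3% and AGGTCA in 15.3%. The table held 9 of the 10 members, and Csf1r had no entry. Of these 9, TGACTCA was in 2 (Gpnmb and Itgax), GGAAGT in 4 (Clec4f, Vsig4, Itgax and Spp1), AGGTCA in 2 (Clec4f and Trem2) and the E-box forms in 0.

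Total counts per library were 14470968 to 20371204. Values are in CPM (read counts scaled to library size, with TMM factors over the 24 libraries), with SD and n = 4, gene positions are those in the files (GRCm38), and a difference was called at an edgeR adjusted p under 0.05. The libraries were checked against their labels first. Tsc1 was at 37.2 to 40.1 CPM in control livers, 18.1 to 28.8 CPM in Tsc1 L-/- and 15.3 to 17.9 CPM in Tsc1Cpt2 L-/- livers, and Ppara at 216 to 278 CPM in control and 13.2 to 44.6 CPM in PPAR-a KO livers. In Cpt2L-/- Ppara KO livers Ppara was at 90.0 CPM in replicate 1 and at 26.2 to 45.7 CPM in the other replicates. Counts over the whole gene do not check the Cpt2 label. In Cpt2L-/- Ppara KO replicate 1 the Ppara target Cyp4a14 was at 3183 CPM, against 185 to 294 CPM in the other replicates of its group, and Tsc1 was at 23.8 CPM, within the range of Tsc1 L-/- livers, against 42.4 to 50.1 CPM. PPAR-a KO replicate 1 and Cpt2L-/- Ppara KO replicate 4 each resembled the other more than any library of its own group. The calls in the Ppara series are therefore also given without these 3 libraries. A further difference ran through all 24 libraries. Cd1d2, picked after its values were seen, was at 0.0695 to 0.868 CPM in the 12 Cpt2 L-/-, PPAR-a KO and Cpt2L-/- Ppara KO libraries and at 10.97 to 61.7 CPM in the 12 others, and Rps3a3, Hist1h2bq, Hist1h2al and Gm6472 split the libraries in the same way. This split cannot be told apart from genotype where Cpt2 L-/- or PPAR-a KO livers are compared with control, where Tsc1Cpt2 L-/- livers are compared with Cpt2 L-/-, or in either interaction. The other comparisons lie within one side of it.

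Per gene length (FPKM, scaled by the authors to total counts), the resident markers Cd5l and Clec4f had the highest mean levels of the 10 members in control livers. Cd5l was at 48.3 ± 11.03 FPKM (SD, n = 4), Clec4f at 33.7 ± 4.11 FPKM and Vsig4 at 14.5 ± 3.41 FPKM. Csf1r and Spp1 followed at 12.5 ± 2.03 and 12.3 ± 3.01 FPKM and Marco at 4.90 ± 1.98 FPKM. The other 4 members, Gpnmb, Trem2, Itgax and Ccr2, each had a control mean of 0.434 FPKM or less. In Tsc1Cpt2 L-/- livers this order changed, with Gpnmb at 26.8 ± 8.13 FPKM beside Cd5l at 25.9 ± 5.77 FPKM and Clec4f at 19.9 ± 4.30 FPKM. On this scale the Gpnmb values of Tsc1Cpt2 L-/- livers (19.8 to 37.3 FPKM) overlapped those of Cd5l and Clec4f in the same livers and lay above those of Vsig4 (6.52 to 11.6 FPKM) and Marco (2.06 to 5.60 FPKM).

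Among the resident markers, the loss of both Tsc1 and Cpt2 went with lower levels of Clec4f, Vsig4 and Cd5l, and the loss of either gene alone did not give a call for any of them. Clec4f (ENSMUSG00000014542, chr6:83644542-83656187, minus strand) encodes a lectin receptor found on Kupffer cells. It was at 102, 91.5, 70.0 and 88.2 CPM in control livers, at 95.5, 72.2, 132 and 81.9 CPM in Tsc1 L-/- livers and at 82.6, 56.6, 91.2 and 86.2 CPM in Cpt2 L-/- livers. In Tsc1Cpt2 L-/- livers it was at 57.7, 38.1, 45.5 and 40.5 CPM. All 4 of these lay below every control and every Tsc1 L-/- library, while 1 lay above the lowest Cpt2 L-/- library. The log2 fold change of Clec4f was −0.93 (SE 0.19, edgeR adjusted p = 0.00111) against control, −1.06 (SE 0.19, edgeR adjusted p = 0.000455) against Tsc1 L-/- and −0.78 (SE 0.19, edgeR adjusted p = 0.00977) against Cpt2 L-/- livers.

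Vsig4 (ENSMUSG00000044206, chrX:96247203-96293438, minus strand) encodes a complement receptor by which Kupffer cells take up opsonized particles. It was at 28.1, 19.7, 15.9 and 23.5 CPM in control livers and at 14.8, 8.65, 11.5 and 9.94 CPM in Tsc1Cpt2 L-/- livers. The groups did not overlap, and the log2 fold change was −0.94 (SE 0.22, edgeR adjusted p = 0.00254). In Tsc1 L-/- livers Vsig4 was at 24.9, 20.7, 27.0 and 17.6 CPM, above all Tsc1Cpt2 L-/- values (log2 fold change −0.99, SE 0.22, edgeR adjusted p = 0.00186). Cpt2 L-/- livers had 24.7, 13.4, 21.1 and 17.7 CPM, which overlapped Tsc1Cpt2 L-/- livers by 1 library on each side. That difference was called (log2 fold change −0.76, edgeR adjusted p = 0.0215), and was lost in 4 of the 8 fits that left out 1 library (adjusted p up to 0.0802), those without Cpt2 L-/- replicate 1 or 3 or Tsc1Cpt2 L-/- replicate 2 or 4.

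Cd5l (ENSMUSG00000015854, chr3:87357881-87371074, plus strand) encodes a protein secreted by tissue macrophages into plasma. It was at 135, 120, 69.8 and 93.7 CPM in control livers and at 54.8, 36.3, 61.5 and 43.4 CPM in Tsc1Cpt2 L-/- livers. These groups did not overlap (log2 fold change −1.08, SE 0.26, edgeR adjusted p = 0.00462). Tsc1 L-/- livers, at 142, 93.4, 137 and 82.8 CPM, also lay above all Tsc1Cpt2 L-/- livers (log2 fold change −1.20, SE 0.26, edgeR adjusted p = 0.00237). Cpt2 L-/- livers were at 101, 59.8, 104 and 133 CPM and overlapped Tsc1Cpt2 L-/- livers through replicate 2. That difference was called (log2 fold change −1.01, edgeR adjusted p = 0.0152), and was lost without Cpt2 L-/- replicate 4 or Tsc1Cpt2 L-/- replicate 2 (adjusted p up to 0.0563).

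Marco (ENSMUSG00000026390, chr1:120474538-120505024, minus strand), a class A scavenger receptor gene, did not follow the other resident markers. Its levels were 15.7, 7.93, 6.38 and 9.71 CPM in control and 6.38, 9.99, 8.20 and 3.69 CPM in Tsc1Cpt2 L-/- livers, which overlapped. None of the tested comparisons of Marco was called, and its means lay between 7.07 ± 2.69 CPM in Tsc1Cpt2 L-/- and 13.6 ± 5.57 CPM in Cpt2L-/- Ppara KO livers. Every pair of neighbours in the order of group means overlapped.

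**Figure D1:**
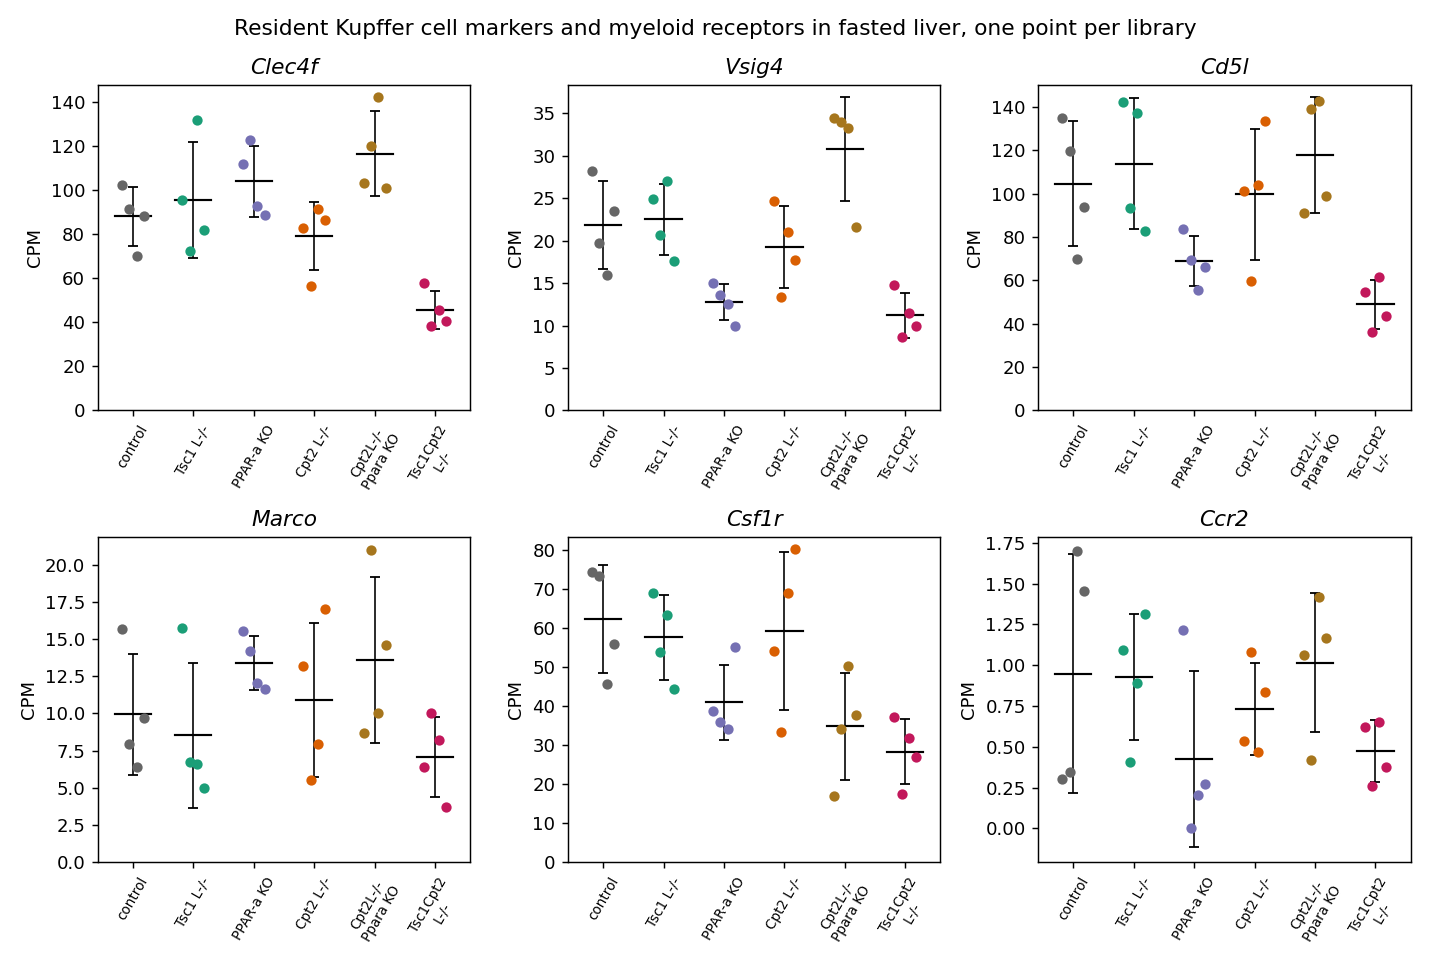
CPM of the resident Kupffer cell markers Clec4f, Vsig4, Cd5l and Marco and of the myeloid receptors Csf1r and Ccr2 (vertical axes, linear) in the 6 genotypes (horizontal axis). Points are libraries, 4 per group, horizontal lines are means and bars are SD. All 4 Tsc1Cpt2 L-/- livers lie below all control livers for Clec4f, Vsig4, Cd5l and Csf1r, while the Marco and Ccr2 values of these groups overlap.

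Csf1r (ENSMUSG00000024621, chr18:61105572-61132149, plus strand), the gene of a receptor on which macrophage survival depends, fell with the resident markers. It was at 74.2, 73.3, 45.7 and 55.9 CPM in control livers, at 68.8, 53.7, 63.4 and 44.3 CPM in Tsc1 L-/- livers and at 37.1, 17.5, 31.8 and 26.9 CPM in Tsc1Cpt2 L-/- livers. Neither of the first 2 groups overlapped the last. The log2 fold change was −1.12 (SE 0.27, edgeR adjusted p = 0.00399) against control, −1.01 (SE 0.26, edgeR adjusted p = 0.00835) against Tsc1 L-/- and −1.04 (SE 0.26, edgeR adjusted p = 0.0135) against Cpt2 L-/- livers, whose values of 54.0, 33.4, 68.9 and 80.2 CPM overlapped by 1 library. In PPAR-a KO livers Csf1r was at 38.6, 36.0, 34.0 and 55.2 CPM and in Cpt2L-/- Ppara KO livers at 16.9, 34.1, 50.1 and 37.8 CPM, and no comparison of Csf1r in the Ppara series was called while every library was kept. Its log2 fold change of −0.76 in Cpt2L-/- Ppara KO against Cpt2 L-/- livers (edgeR adjusted p = 0.0813) was called without Cpt2 L-/- replicate 2 or without Cpt2L-/- Ppara KO replicate 3 (adjusted p = 0.0359 and 0.0372).

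Ccr2 (ENSMUSG00000049103, chr9:124101950-124113557, plus strand), the gene of the receptor that brings monocytes into inflamed tissue, was near the limit of detection. It had 0 to 33 reads per library, and 0.302 to 1.70 CPM in control livers. PPAR-a KO replicate 2 had 0 reads, which allows up to 0.237 CPM (3 reads). Tsc1Cpt2 L-/- livers had 0.257 to 0.651 CPM, which overlapped control livers. No comparison of Ccr2 was called while every library was kept.

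Gpnmb (ENSMUSG00000029816, chr6:49036518-49058182, plus strand), the gene of a transmembrane glycoprotein of lipid-laden macrophages, gave the widest range of the 10 members. It was at 1.45, 1.72, 2.57 and 1.10 CPM in control livers and at 2.37, 3.01, 0.892 and 4.0 CPM in Tsc1 L-/- livers, which overlapped (edgeR adjusted p = 0.504). In Cpt2 L-/- livers it was at 25.4, 21.8, 10.6 and 23.2 CPM and in Tsc1Cpt2 L-/- livers at 99.2, 131, 77.2 and 70.1 CPM. Every Cpt2 L-/- library lay above every control and Tsc1 L-/- library, and every Tsc1Cpt2 L-/- library above all of those. The log2 fold change against control was 3.54 (SE 0.40, edgeR adjusted p = 1.65e-05) in Cpt2 L-/- and 5.79 (SE 0.42, edgeR adjusted p = 2.87e-07) in Tsc1Cpt2 L-/- livers, 11.7-fold and 55.2-fold. Between Tsc1Cpt2 L-/- and Cpt2 L-/- livers it was 2.24 (SE 0.34, edgeR adjusted p = 0.000677), and between Tsc1Cpt2 L-/- and Tsc1 L-/- livers 5.21 (SE 0.40, edgeR adjusted p = 9.94e-07). These 4 calls remained in every alternative run, including each fit that left out 1 library. The comparisons of Cpt2 L-/- with control and of Tsc1Cpt2 L-/- with Cpt2 L-/- livers cross the split of libraries described above, which no alternative run removes.

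Trem2 (ENSMUSG00000023992, chr17:48346401-48354147, plus strand) encodes a lipid-sensing receptor that signals through Tyrobp, and Itgax (ENSMUSG00000030789, chr7:128129547-128150656, plus strand) the integrin CD11c. Neither gene was called higher where Gpnmb rose while every library was kept. Trem2 had 1 to 49 reads and Itgax 3 to 37 reads per library, so their values carry wide counting error. Trem2 was at 2.17, 1.59, 1.18 and 0.407 CPM in control livers, 0.693, 0.634, 0.294 and 0.446 CPM in Cpt2 L-/- and 0.509, 0.978, 0.390 and 0.534 CPM in Tsc1Cpt2 L-/- livers. It fell in Cpt2 L-/- livers (log2 fold change −1.35, SE 0.46, edgeR adjusted p = 0.0302), where control replicate 4 overlapped the Cpt2 L-/- values. This call was lost without control replicate 1 or 2 or Cpt2 L-/- replicate 3 or 4 (adjusted p up to 0.14), and with all 24 libraries or only the 2 groups in the fit. Against control, Tsc1Cpt2 L-/- livers had a Trem2 log2 fold change of −1.10 (SE 0.45, edgeR adjusted p = 0.0609), which did not pass. It passed with DESeq2 (adjusted p = 0.0485) and without control replicate 4 or Tsc1Cpt2 L-/- replicate 2 (edgeR adjusted p = 0.0132 and 0.0356). Itgax was at 0.543, 0.345, 1.90 and 0.930 CPM in control and 0.678, 0.360, 0.455 and 0.214 CPM in Tsc1Cpt2 L-/- livers, which overlapped (edgeR adjusted p = 0.0749, called lower without control replicate 2 or Tsc1Cpt2 L-/- replicate 1).

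Spp1 (ENSMUSG00000029304, chr5:104435118-104441050, plus strand), the gene of the secreted matrix protein osteopontin, also made by bile duct cells, had a pattern of its own. It was at 17.8, 19.7, 24.3 and 15.8 CPM in control livers, 25.5, 25.8, 30.5 and 22.8 CPM in Tsc1 L-/-, 9.91, 14.5, 10.4 and 12.8 CPM in Cpt2 L-/- and 18.6, 22.9, 17.1 and 18.4 CPM in Tsc1Cpt2 L-/- livers. All Cpt2 L-/- livers lay below all livers of the 3 other groups. Spp1 fell in Cpt2 L-/- livers against control (log2 fold change −0.71, SE 0.16, edgeR adjusted p = 0.00191) and was higher in Tsc1Cpt2 L-/- than in Cpt2 L-/- livers (log2 fold change 0.72, SE 0.16, edgeR adjusted p = 0.00447). Between Tsc1Cpt2 L-/- and control livers the means were 19.2 ± 2.5 and 19.4 ± 3.64 CPM (edgeR adjusted p = 0.983). Tsc1 L-/- livers had the highest mean, 26.1 ± 3.18 CPM, which was not called against control (log2 fold change 0.43, edgeR adjusted p = 0.101). The difference between Tsc1Cpt2 L-/- and Tsc1 L-/- livers was called (log2 fold change −0.43, SE 0.15, edgeR adjusted p = 0.0396), and was lost in 6 of 8 fits that left out 1 library (adjusted p up to 0.121), all but those without Tsc1 L-/- replicate 4 or Tsc1Cpt2 L-/- replicate 2. It was also lost without the filter and with all 24 libraries in the fit.

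**Figure D2:**
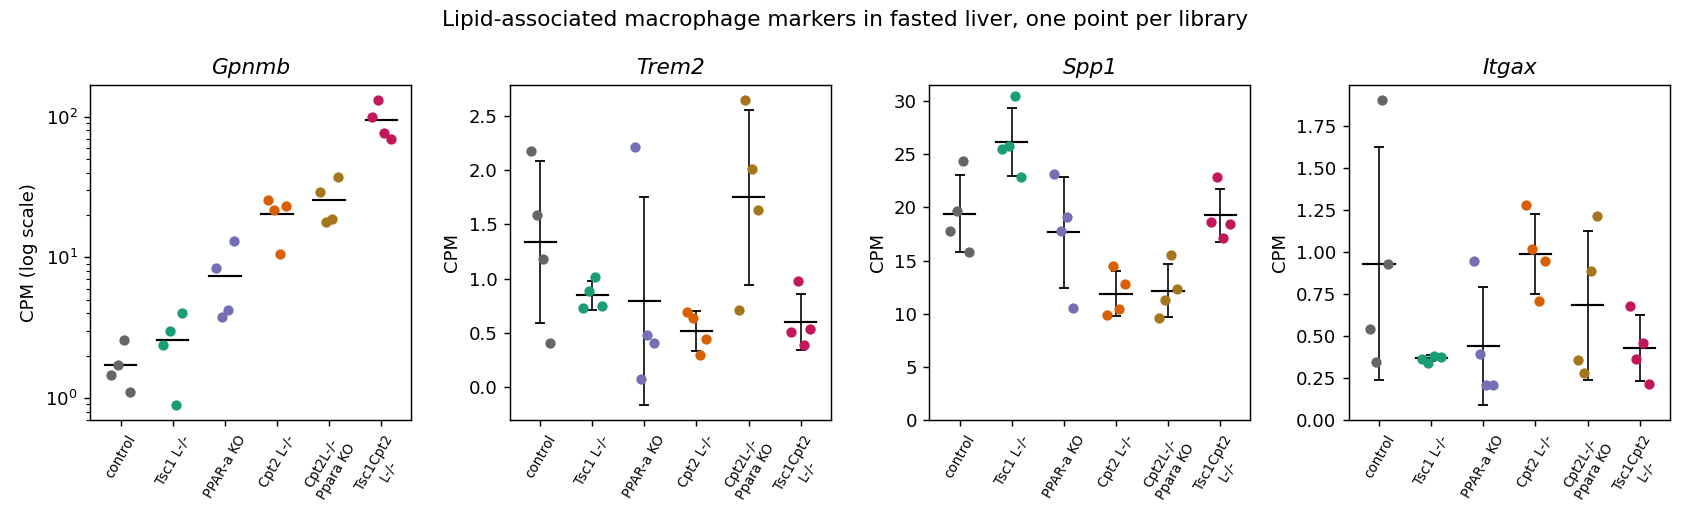
CPM of Gpnmb (log axis) and of Trem2, Spp1 and Itgax (linear axes) in the 6 genotypes (horizontal axis). Points are libraries, 4 per group, horizontal lines are means, and bars on the linear panels are SD. Gpnmb climbs from 1.10 to 2.57 CPM in control to 70.1 to 131 CPM in Tsc1Cpt2 L-/- livers, while Trem2 reaches at most 2.64 CPM and Itgax at most 1.90 CPM in any library.

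Counted over the members, the genotypes differed as follows. Tsc1 L-/- against control livers gave 0 of 10 members called by edgeR, where 4.16% of all genes tested were called higher and 2.48% lower, with 2 members (Spp1 and Itgax) at an unadjusted p under 0.05 and 0 called by DESeq2. In no member did these groups stand apart, as they did for 6.73% of all genes in the higher and 5.37% in the lower direction. Cpt2 L-/- against control livers gave 3 members, Gpnmb higher and Trem2 and Spp1 lower, where 16.2% of all genes were called higher and 14.9% lower. Gpnmb and Spp1 did not overlap between these groups, as was so for 16.1% of all genes in the higher and 14.8% in the lower direction.

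For Tsc1Cpt2 L-/- against control livers the count was 5, Gpnmb higher and Clec4f, Vsig4, Cd5l and Csf1r lower, where 19.3% of all genes were called higher and 17.1% lower. The same 5 members were those whose groups did not overlap, as was so for 19.6% of all genes in the higher and 17.5% in the lower direction. Against Cpt2 L-/- livers, this genotype gave 2 higher and 4 lower members, where 10.9% of all genes were called higher and 7.4% lower. Gpnmb, Spp1 and Itgax did not overlap there (12.9% of all genes in the higher and 10.2% in the lower direction), although Itgax was not called (log2 fold change −1.19, edgeR adjusted p = 0.0932). Against Tsc1 L-/- livers it gave 1 higher and 5 lower members, where 16.9% of all genes were called higher and 15.2% lower. There 5 members did not overlap, against 16.3% of all genes in the higher and 14.2% in the lower direction. The median log2 fold change of the members against control was 0.00 in Tsc1 L-/-, −0.11 in Cpt2 L-/- and −0.98 in Tsc1Cpt2 L-/- livers, beside 0.01, −0.02 and 0.02 over all genes tested. These comparisons share their control libraries.

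The interaction term asks whether the effect of losing both genes differs from the sum of the single effects on the log2 scale. None of the 10 members was called by edgeR, where 1.09% of all genes were called with a positive and 1.28% with a negative term. An unadjusted p under 0.05 was reached by 5, with interaction terms of −0.90 (SE 0.27) for Clec4f, −0.81 (SE 0.30) for Vsig4, −1.13 (SE 0.37) for Cd5l, −0.94 (SE 0.37) for Csf1r and 1.67 (SE 0.55) for Gpnmb. The edgeR adjusted p-values were 0.0821 for Clec4f, 0.112 for Cd5l, 0.121 for Gpnmb, 0.155 for Vsig4 and 0.185 for Csf1r. DESeq2 called 3 of them, Clec4f, Cd5l and Gpnmb, so the call of a departure from additivity depended on the tool. Clec4f and Cd5l were also called by edgeR without Cpt2 L-/- replicate 2.

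**Figure D3:**
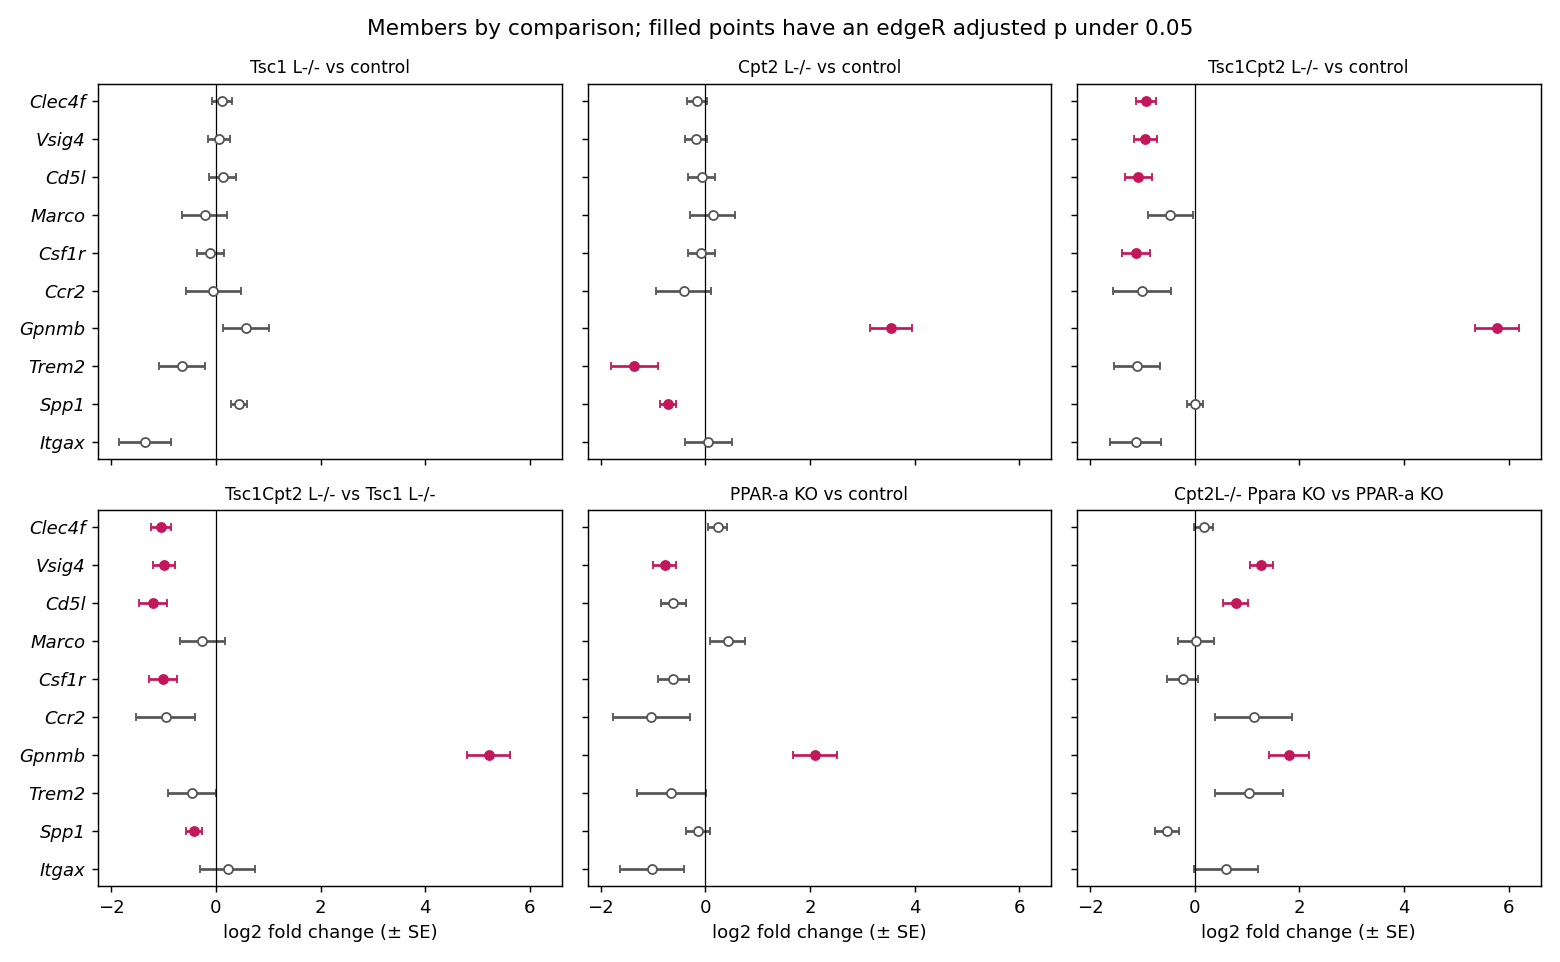
Log2 fold changes of the 10 members with their standard errors (horizontal axes) in 6 comparisons (panels). Filled points have an edgeR adjusted p under 0.05. In Tsc1Cpt2 L-/- against control livers, Gpnmb stands at 5.79, with Clec4f, Vsig4, Cd5l and Csf1r between −1.12 and −0.93.

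In the Ppara series, Gpnmb was higher with either Cpt2 or Ppara missing, and mean Vsig4 was at its lowest of these 4 groups in PPAR-a KO and at its highest in Cpt2L-/- Ppara KO livers. Gpnmb was at 8.38, 3.79, 4.23 and 13.2 CPM in PPAR-a KO and at 29.2, 17.9, 18.7 and 37.2 CPM in Cpt2L-/- Ppara KO livers. All PPAR-a KO livers lay above all control livers (log2 fold change 2.10, SE 0.42, edgeR adjusted p = 0.00139), and all Cpt2L-/- Ppara KO livers above all PPAR-a KO livers (log2 fold change 1.80, SE 0.38, edgeR adjusted p = 0.00629). The latter call was lost with only these 2 groups in the fit, and without the 3 libraries named above (log2 fold change 1.36). Cpt2L-/- Ppara KO and Cpt2 L-/- livers overlapped in Gpnmb, with means of 25.8 ± 9.20 and 20.2 ± 6.61 CPM (edgeR adjusted p = 0.528). Against control, 2 of 10 members were called in PPAR-a KO livers, Gpnmb higher and Vsig4 lower, where 15.9% of all genes were called higher and 13.2% lower. These 2 did not overlap between the groups, as was so for 14.8% of all genes in the higher and 15.1% in the lower direction.

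Vsig4 was at 15, 13.6, 12.6 and 9.95 CPM in PPAR-a KO livers, below all control livers (log2 fold change −0.78, SE 0.22, edgeR adjusted p = 0.0151, lost without control replicate 1 at 0.0601). In Cpt2L-/- Ppara KO livers it was at 34.4, 33.9, 33.2 and 21.7 CPM, above all PPAR-a KO livers (log2 fold change 1.27, SE 0.22, edgeR adjusted p = 0.00331). Replicate 4, the lowest of this group, lay in the range of Cpt2 L-/- livers. The interaction of Cpt2 and Ppara loss was 1.46 for Vsig4 (SE 0.31, edgeR adjusted p = 0.00419) and −1.75 for Gpnmb (SE 0.55, edgeR adjusted p = 0.0302), the 2 members called, where 12% of all genes were called in each direction. The Vsig4 term was called in every alternative run. The Gpnmb term was lost without the filter and in 8 of 16 fits that left out 1 library, those without control replicate 1, 2 or 4, Cpt2 L-/- replicate 1 or 4, PPAR-a KO replicate 4 or Cpt2L-/- Ppara KO replicate 2 or 3 (adjusted p up to 0.0654).

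Clec4f was at 112, 123, 92.6 and 88.8 CPM in PPAR-a KO and at 103, 120, 142 and 101 CPM in Cpt2L-/- Ppara KO livers, and Cd5l at 83.6, 69.4, 55.8 and 66.0 CPM and at 90.8, 139, 143 and 99.0 CPM. Unlike Vsig4, Clec4f in PPAR-a KO livers overlapped control livers and was not called (edgeR adjusted p = 0.352). Between Cpt2L-/- Ppara KO and PPAR-a KO livers, Cd5l rose (log2 fold change 0.78, SE 0.25, edgeR adjusted p = 0.0292), a call lost in 5 of 8 fits that left out 1 library (adjusted p up to 0.0844), all but those without PPAR-a KO replicate 1 or Cpt2L-/- Ppara KO replicate 1 or 4, and with only these 2 groups in the fit. With Vsig4 and Gpnmb this made 3 of 10 members, all higher, where 12.9% of all genes were called higher and 12.6% lower. The same 3 did not overlap (8.99% of all genes in the higher and 9.16% in the lower direction). Spp1 went the other way, with means of 12.2 ± 2.48 CPM in Cpt2L-/- Ppara KO and 17.6 ± 5.24 CPM in PPAR-a KO livers. It was not called (log2 fold change −0.53, SE 0.23, edgeR adjusted p = 0.0937), but was with all 24 libraries in the fit and without PPAR-a KO replicate 4. Between Cpt2L-/- Ppara KO and Cpt2 L-/- livers, 2 members were called, Clec4f (log2 fold change 0.56, SE 0.18, edgeR adjusted p = 0.0407) and Vsig4 (log2 fold change 0.68, SE 0.22, edgeR adjusted p = 0.0399), where 10.3% of all genes were called higher and 8.01% lower. Clec4f and Trem2 did not overlap between these groups (11.2% of all genes in the higher and 11.1% in the lower direction). The calls of Clec4f and Vsig4 were each lost in 6 of 8 fits that left out 1 library (adjusted p up to 0.117 and 0.11), without the filter, and with only these 2 groups in the fit, where Trem2 was the 1 member called. Clec4f held without Cpt2L-/- Ppara KO replicate 1 or 4, and Vsig4 without Cpt2 L-/- replicate 1 or Cpt2L-/- Ppara KO replicate 4.

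Several calls of the low members changed with PPAR-a KO replicate 1. Trem2 was at 2.21 CPM in this library and at 0.0789, 0.486 and 0.412 CPM in the other replicates, Itgax at 0.946 CPM against 0.395, 0.208 and 0.206 CPM, and Ccr2 at 1.22 CPM against 0, 0.208 and 0.274 CPM. Without it, 6 members were called against control, where 16.8% of all genes were called higher and 14.7% lower. Gpnmb was higher, and Vsig4, Cd5l, Trem2, Itgax and Ccr2 were lower, with log2 fold changes of −2.0 for Trem2, −1.82 for Itgax and −2.50 for Ccr2 (edgeR adjusted p = 0.0265, 0.0497 and 0.0271). Cpt2L-/- Ppara KO livers then differed from PPAR-a KO livers in 5 members, all higher, where 14.3% of all genes were called higher and 14.8% lower. Trem2 (log2 fold change 2.37, edgeR adjusted p = 0.0137) and Ccr2 (log2 fold change 2.57, edgeR adjusted p = 0.027) joined Vsig4, Cd5l and Gpnmb. Against Cpt2 L-/- livers, Trem2 (log2 fold change 1.73, edgeR adjusted p = 0.0354) was then called beside Clec4f and Vsig4, where 9.94% of all genes were called higher and 8.41% lower. The interaction of Cpt2 and Ppara loss was called for Trem2 (3.73, edgeR adjusted p = 0.0047) and Ccr2 (2.99, edgeR adjusted p = 0.0381) beside Vsig4 and Gpnmb, where 13.6% of all genes had a positive and 13.6% a negative call.

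Without the 3 doubted libraries together, Cpt2L-/- Ppara KO livers were replicates 2 and 3 alone, with 38 and 34 Trem2 reads, and PPAR-a KO livers replicates 2, 3 and 4. The same 6 members were then called in PPAR-a KO against control livers, where 19.6% of all genes were called higher and 17.3% lower, with a Vsig4 log2 fold change of −0.88 (edgeR adjusted p = 0.00765). Between Cpt2L-/- Ppara KO and PPAR-a KO livers 3 members were then called, all higher, where 8.84% of all genes were called higher and 9.42% lower. These were Vsig4 (log2 fold change 1.48, edgeR adjusted p = 0.00323), Cd5l (1.14, edgeR adjusted p = 0.016) and Trem2 (2.78, edgeR adjusted p = 0.015), while Gpnmb (edgeR adjusted p = 0.0605) and Ccr2 (edgeR adjusted p = 0.0909) did not pass. Between Cpt2L-/- Ppara KO and Cpt2 L-/- livers 3 members were called higher, where 6.83% of all genes were called higher and 6.57% lower. They were Clec4f (log2 fold change 0.72, edgeR adjusted p = 0.0323), Vsig4 (0.79, edgeR adjusted p = 0.043) and Trem2 (2.14, edgeR adjusted p = 0.0286). The interaction of Cpt2 and Ppara loss was called for 4 members, Vsig4 (1.68), Cd5l (1.22), Trem2 (4.14) and Gpnmb (−2.17), where 12.4% of all genes had a positive and 12.8% a negative call.

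With every library kept, Cpt2L-/- Ppara KO livers had 0.709, 2.64, 2.01 and 1.63 CPM of Trem2, above every Cpt2 L-/- library. This was not called (log2 fold change 1.74, SE 0.68, edgeR adjusted p = 0.0815), but was with DESeq2, with a fit of all 24 libraries and with only the 2 groups (adjusted p = 0.0428, 0.0387 and 0.0314). The Trem2 interaction term with every library kept was 2.39 (SE 0.94, edgeR adjusted p = 0.0722), and it was called with DESeq2 and with a fit of all 24 libraries (adjusted p = 0.0362 and 0.0341).

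The genes whose log2 CPM followed each member most closely over the 24 libraries are given as a description, since the points share libraries and genotypes. For Gpnmb, among 12233 genes, they were Sema3b (Pearson r = 0.925), BC029722 (0.912) and Impact (0.912), which are not on any macrophage list used here. For the resident markers they were mostly myeloid genes. Clec4f was followed by Spi1 (0.847), Slc11a1 (0.844) and Serpina1b (0.841), Vsig4 by Lyz2 (0.859), Tyrobp (0.849) and Ly86 (0.836), and Cd5l by Emr1 (0.900, also called Adgre1, the F4/80 antigen), Fpr1 (0.826) and Cfp (0.812). Csf1r was followed by Rgl1 (0.906), Sdc3 (0.896) and Nckap1l (0.890). The closest genes to Spp1 were Atpaf2 (0.872), Pnpla6 (0.848) and Dap (0.846), and those to Marco 2510009E07Rik (0.693), Tlr13 (0.665) and Cacfd1 (0.643). Between members, Vsig4 and Cd5l had r = 0.863 and Clec4f and Cd5l r = 0.772, while Gpnmb and Trem2 had r = −0.10.

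Other genes of the macrophage program were counted from lists. In Tsc1Cpt2 L-/- against control livers, where 19.3% of all genes were called higher and 17.1% lower, 8 of 14 other Kupffer cell genes fell and 0 rose (median log2 fold change −0.79). Among these were Fcna (−0.90), Folr2 (−1.21) and the complement genes C1qa (−0.82) and C1qb (−0.79). Of 12 pan-macrophage genes, 9 fell, such as the lysozyme gene Lyz2 (−0.99) and Mpeg1 (−1.44), and 1, the lysosomal glycoprotein gene Cd68, rose (3.46, median −0.99). Of 12 other genes of lipid-associated macrophages, 5 rose and 1 fell (median 0.88), and the examples with the lowest adjusted p were Anxa2 (2.47), Cd63 (4.01), Capg (1.55) and the falling Atp6v0d2 (−4.63). Anxa2, Cd63 and Capg are known from many other cell types as well. Of the Trem2 signalling partners, 3 of 3 tested fell, Syk (−1.10), Tyrobp (−0.85) and Plcg2 (−0.99). None of the 4 MiT/TFE transcription factor genes, known regulators of Gpnmb, was called by edgeR or reached an unadjusted p under 0.05 in this comparison. Transcript levels do not measure the activity of these factors, which was not tested. The calls in other comparisons were Tfe3 lower in Tsc1Cpt2 L-/- than Cpt2 L-/- livers (−0.43), Tfeb lower in PPAR-a KO than control livers (−0.98), Tfec higher (1.27) and Tfe3 lower (−0.73) in Cpt2L-/- Ppara KO than PPAR-a KO livers, and Tfe3 in the interaction of Cpt2 and Ppara loss (−1.01). The ligand gene Csf1 fell (−0.82, edgeR adjusted p = 0.00275), alone among the 4 tested of 8 ligand genes, and 0 of 2 tested monocyte genes were called, with 1 at an unadjusted p under 0.05.

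The comparisons of Cpt2 L-/- and PPAR-a KO livers with control, given below, cross the split of libraries described above. Those of Tsc1Cpt2 L-/- livers with control and with Tsc1 L-/- livers do not. Against Tsc1 L-/- livers, where 16.9% of all genes were called higher and 15.2% lower, of the other Kupffer cell genes 8 of 14 fell, of the pan-macrophage genes 6 of 12 fell and Cd68 rose (3.36), and of the other lipid-associated genes 5 rose and 2 fell. Against control, Cpt2 L-/- livers had 1 of 14 other Kupffer cell genes lower and 4 of 12 other lipid-associated genes higher, with 2 lower, where 16.2% of all genes were called higher and 14.9% lower. Of the 12 pan-macrophage genes there, 1 rose and 2 fell (median −0.38). This list summed to 219 to 309 CPM in Cpt2 L-/-, 170 to 268 CPM in Tsc1Cpt2 L-/- and 367 to 549 CPM in control livers. In PPAR-a KO against control livers, 6 of 12 pan-macrophage genes fell and Cd68 rose (1.0), where 13.2% of all genes were called lower and 15.9% higher. Of the 14 other Kupffer cell genes there, 3 rose, Clec1b (0.86), Id3 (1.66) and C6 (1.08), and 1 fell, while of the 12 other lipid-associated genes 2 rose and 2 fell. In Cpt2L-/- Ppara KO against PPAR-a KO livers, where 12.9% of all genes were called higher and 12.6% lower, 5 of 12 pan-macrophage genes rose and 0 fell, 4 of 12 other lipid-associated genes rose and 1 fell, and 1 of 14 other Kupffer cell genes rose and 1 fell. Markers of other liver cells were called there as well. Of 8 stellate markers 2 fell and 1 rose, of 7 sinusoidal endothelial markers 2 fell and 1 rose, and of 4 tested cholangiocyte markers 1 fell and 0 rose.

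Some markers of other liver cells were lower as well. In Tsc1Cpt2 L-/- against control livers, 8 of 8 stellate cell markers, 3 of 4 tested dendritic cell markers, 3 of 7 sinusoidal endothelial markers, 1 of 4 tested cholangiocyte markers, 1 of 3 tested neutrophil markers, 1 of 2 tested T, B and NK cell markers and 2 of 6 hepatocyte markers fell, and 0 rose, where 17.1% of all genes were called lower. Counts of 1 of 2 to 1 of 4 genes are too few to set against that share. The stellate list summed to 261 to 362 CPM in control and 158 to 198 CPM in Tsc1Cpt2 L-/- livers, the endothelial list to 320 to 366 and 197 to 326 CPM, and the hepatocyte list to 59160 to 75529 and 26764 to 33270 CPM. The resident Kupffer markers summed to 162 to 281 CPM in control and 93.0 to 134 CPM in Tsc1Cpt2 L-/- livers. Whether cell makeup shifted, and what part this had in the fall of the resident markers, was not tested. Against Tsc1 L-/- livers, where Clec4f, Vsig4, Cd5l and Csf1r also fell, 2 of 8 stellate markers, 1 of 7 endothelial markers and 3 of 6 hepatocyte markers fell, where 15.2% of all genes were called lower.

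**Figure D4:**
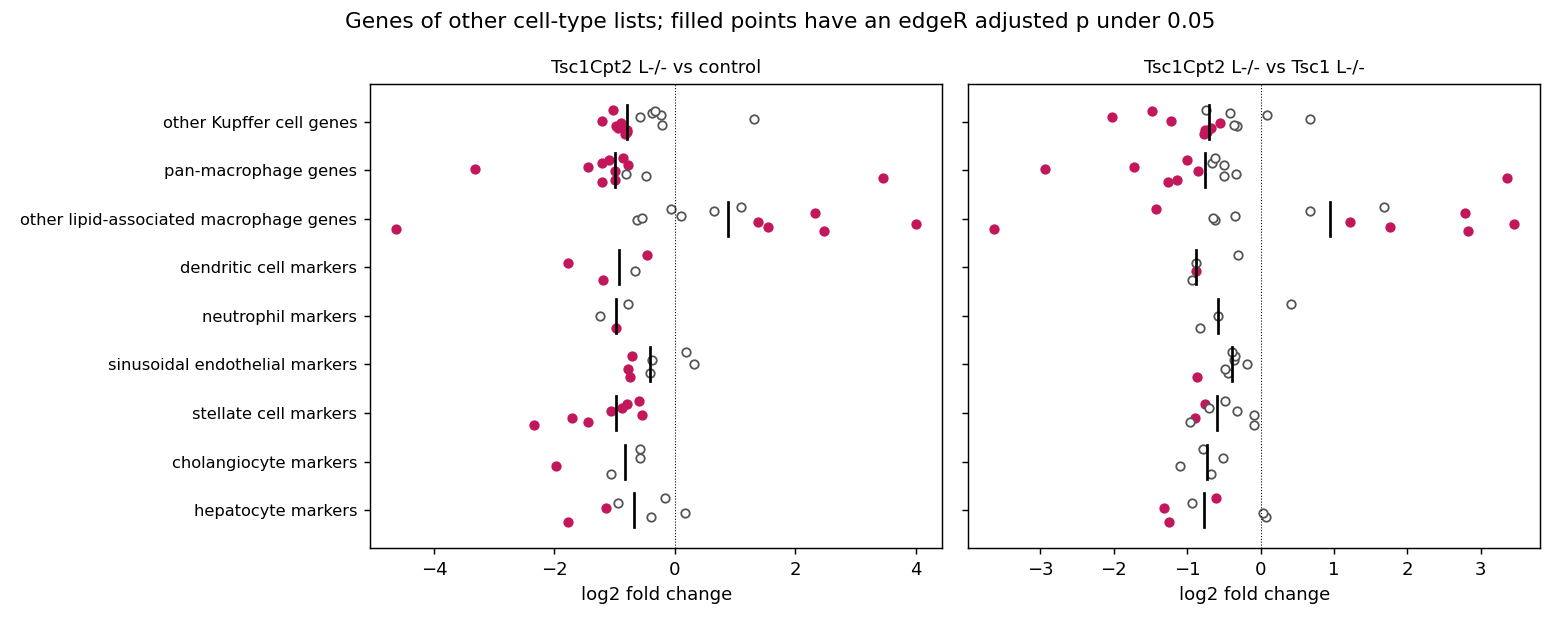
Log2 fold changes (horizontal axes) of genes on 9 cell-type lists (vertical axis) in Tsc1Cpt2 L-/- livers against control and against Tsc1 L-/- livers. Each point is a tested gene, filled where the edgeR adjusted p is under 0.05, and vertical strokes are list medians. The medians of the Kupffer and pan-macrophage lists are −0.79 and −0.99 against control, and that of the other lipid-associated genes is 0.88.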

How the data were processed

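Liver RNA was sequenced as 24 poly(A)-selected, stranded libraries. The authors deposited raw read counts per gene for 35275 genes, and FPKM values which the authors made from the same counts (recomputed values matched for 100% within a relative tolerance of 1e-06). Gene coordinates in the files are those of GRCm38. The submitters' processing notes name Bowtie 0.12.2, TopHat, STAR 2.5, HTSeq 0.6.1, edgeR and DESeq2, and the builds mm8 and mm9, without roles, so the aligner, counter and strand setting behind these counts are not known, and reads of overlapping or near-identical genes could be shared.

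The analysis of counts used edgeR 4.0.16 under R 4.3.3 (filterByExpr with a minimum count of 10 and total of 15, TMM, robust quasi-likelihood tests, Benjamini-Hochberg adjustment over all genes tested, threshold 0.05). The Tsc1 series (single and combined losses, with control) entered 1 fit (13641 genes), and the Ppara series (PPAR-a KO and Cpt2L-/- Ppara KO, with Cpt2 L-/- and control) another (13615 genes). Groups were taken from the labels. Nothing states that libraries of a group came from separate litters or days, so p-values measure the spread between these livers. No 2 libraries of a group were duplicates. At 14470968 to 20371204 counts, members under 1 CPM had few reads. Intervals for 0 reads cover counting error only.

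The members and gene lists were chosen with earlier results of these data known. All 10 members are named. Per list and comparison up to 4 genes with the lowest adjusted p are named (1 such gene is not reported here), and per member with a mean of at least 1 CPM the 3 most correlated genes (log2 CPM, prior count 2). Alternatives were RLE scaling, no filter, DESeq2 1.42.0, all 24 libraries or only 2 groups in the fit, the replicate number as a block, and each library left out. Leaving out 3 libraries of the Ppara groups together, and leaving PPAR-a KO replicate 1 out of the fit behind a comparison of other groups, were added after the data were seen. The tests were checked on simulated data. Figures were drawn with matplotlib 3.10.9.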

Additional observations from a re-analysis of the deposited data

Results flagged for a closer look

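Of 60 sets of 4 libraries examined (10 members in 6 genotypes), 2 held a library far from the other 3, where chance gives about 1 in 20. Marco was at 15.7 CPM in Tsc1 L-/- replicate 1 and at 5.0 to 6.76 CPM in the other replicates. Vsig4 was at 21.7 CPM in Cpt2L-/- Ppara KO replicate 4 and at 33.2 to 34.4 CPM in the other replicates. That library was also the one that most resembled PPAR-a KO replicate 1.

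The interaction test of edgeR called 2 members for Cpt2 and Ppara loss. This term cannot be told apart from the split of libraries described above. The interaction was 1.46 for Vsig4 (SE 0.31, edgeR adjusted p = 0.00419) and −1.75 for Gpnmb (SE 0.55, edgeR adjusted p = 0.0302) on the log2 scale. Without the 3 doubted libraries of the Ppara groups the terms were 1.68 and −2.17 (edgeR adjusted p = 0.00275 and 0.0244). With 1 library left out, the Gpnmb term was lost in 8 of 16 fits, while the Vsig4 term was called in each. Leaving out libraries does not remove the split.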

How the results depend on the processing

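Across 706 alternative values of the members' 45 log2 fold changes with an unadjusted p under 0.05, 0 changed sign. Their other fold changes are not in this count. The 45 were selected by a low p-value and refitted on mostly the same libraries, so few changes of sign could appear. The number of called members moved by over 1.5 times under these settings. Between Cpt2L-/- Ppara KO and Cpt2 L-/- livers 2 members became 0 without the filter, 1 (Trem2, with Clec4f and Vsig4 lost) with only the 2 groups fitted and 1 (Clec4f lost) with the replicate number as a block. For the interaction of Cpt2 and Ppara loss 2 became 1 without the filter and 4 without the 3 doubted libraries. For the interaction of Tsc1 and Cpt2 loss 0 became 3 with DESeq2, between Cpt2L-/- Ppara KO and PPAR-a KO livers 3 became 1 with only the 2 groups fitted, and between PPAR-a KO and control livers 2 became 6 without the 3 doubted libraries. The cause was not tested. With 1 library of the groups compared left out, the counts ranged from 0 to 1 (Tsc1 L-/- against control, where Spp1 was called without control replicate 3), 0 to 2 (interaction of Tsc1 and Cpt2 loss), 1 to 6 (PPAR-a KO against control), 0 to 2 (Cpt2L-/- Ppara KO against Cpt2 L-/-, and 3 without PPAR-a KO replicate 1, which is in the same fit), 2 to 5 (Cpt2L-/- Ppara KO against PPAR-a KO) and 1 to 4 (interaction of Cpt2 and Ppara loss). They were 2 to 3 for Cpt2 L-/-, 5 to 6 for Tsc1Cpt2 L-/- against control, 4 to 6 against Cpt2 L-/- and 5 to 6 against Tsc1 L-/-. Deviations of same-numbered libraries correlated at −0.26 to 0.22 over 44 pairs (median 0.01), 9 of them above 0.1. Differently numbered libraries were not compared, so this does not show whether replicate numbers paired the samples. For the interaction of Cpt2 and Ppara loss the block gave 3 called members instead of 2, with Trem2 added, and beside this and the change from 2 to 1 given above it moved no count. Depth limits Trem2, Itgax and Ccr2, with at most 49, 37 and 33 reads in a library.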
